A study of Homo sapiens with 4 samples.

Results

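The 10 genes described here code for a set of bone morphogenetic protein (BMP) ligands, BMP2, BMP4 and BMP6, the 4 ID proteins ID1 to ID4, the inhibitory SMADs SMAD6 and SMAD7, and the pseudoreceptor BAMBI. They were chosen by symbol through GENCODE release 29 and are 10 of 57500 genes counted. Parental SUM159 cells gave 1 library, and 3 NOS2KO SUM159 clones, numbered 1, 5 and 6 in the labels, gave 1 library each. SUM159 is a human metaplastic breast cancer (MpBC) line of triple-negative type. The knockout of NOS2, the gene of inducible nitric oxide synthase, was made with a double nickase plasmid and puromycin, and clones were picked by their iNOS protein and nitric oxide products. The labels name no drug treatment of any library. Each clone descends from picked cells, and no clone without the knockout was among the 4 libraries, so knockout and clonal origin cannot be told apart here.

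Depth was 90467395 to 122171287 counts per library. NOS2 itself had 2 counts in the parental library and 3, 18 and 1 in the libraries labelled clone 1, 5 and 6, so the knockout was not visible in its mRNA, and the clone libraries are named below by their labels because the one labelled clone 5 had the most NOS2. ESR1 had at most 79 counts and PGR at most 3, but ERBB2, the third triple-negative marker, was expressed, with 48.3 CPM in the parental library and 55.6, 106.2 and 99.1 CPM in the libraries labelled clone 1, 5 and 6. Of 4 mesenchymal markers VIM and FN1 were abundant in all 4 libraries. VIM had 1655 CPM in the parental library and 2890 to 3855 CPM in the clones, and FN1 had 2155 CPM and 2352 to 3006 CPM. CDH2 had 159.5 CPM in the parental library and 109.2 to 182.7 CPM in the clones. ZEB1 was lower in every clone, with 83.7 CPM in the parental library and 39.5 to 57.8 CPM in the clones. Of 6 epithelial markers KRT8 and KRT18 were abundant, and both were higher in every clone. KRT8 had 253.9 CPM in the parental library and 416.1 to 806.5 CPM in the clones. KRT18 had 303.0 CPM in the parental library and 325.9 to 467.3 CPM in the clones. CDH1 and EPCAM had at most 44 and 28 counts, KRT5 had 5 to 659, and KRT14 fell from 358 counts to at most 24. Of the blood and endothelial markers reported, PECAM1 had 753 to 1598 counts, VWF 19 to 405 and CD3E at most 8, but PTPRC (CD45) had 402 counts in the parental library against 7848, 11233 and 4112 in the libraries labelled clone 1, 5 and 6, and its part in the results below was not tested.

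BMP ligands bind paired type I and type II serine/threonine kinase receptors, which phosphorylate SMAD1, SMAD5 and SMAD9. With SMAD4 these enter the nucleus and switch on target genes, among which ID1, ID2, ID3, SMAD6, SMAD7 and BAMBI are textbook examples. ID proteins lack a DNA-binding region and hold E proteins away from DNA. SMAD6 and SMAD7 inside the cell and BAMBI at its membrane dampen the pathway, so ligands, targets and brakes sit in one loop. In breast epithelium and its tumours the pathway is known for roles in differentiation and in stem-like cells.

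RefSeq promoter windows (GRCh38.p14, from 250 bases before to 50 bases after an annotated start) were at hand for 9 of the 10 genes, 13 windows in all. The windows of BMP4, ID1, ID3 and SMAD6 are shown because BMP4 and ID3 had the largest differences upward and ID1 and SMAD6 serve as a paralogue and a brake for comparison. The capitals mark GGCGCC, the GC-rich site bound by BMP SMADs, GTCTAGAC, the palindromic SMAD box, and TATAAA, the TATA box, each searched on both strands. The windows lie at chr14:53955001-53955300 on the minus strand (BMP4, the first of its 3 windows), chr20:31605039-31605338 on the plus strand (ID1), chr1:23559452-23559751 on the minus strand (ID3) and chr15:66701986-66702285 on the plus strand (SMAD6).
BMP4: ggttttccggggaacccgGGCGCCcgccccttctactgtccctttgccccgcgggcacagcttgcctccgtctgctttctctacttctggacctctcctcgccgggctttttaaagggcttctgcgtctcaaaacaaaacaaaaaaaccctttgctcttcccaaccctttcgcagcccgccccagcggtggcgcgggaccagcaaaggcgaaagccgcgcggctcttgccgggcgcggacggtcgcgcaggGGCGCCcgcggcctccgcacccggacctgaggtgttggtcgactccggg
ID1: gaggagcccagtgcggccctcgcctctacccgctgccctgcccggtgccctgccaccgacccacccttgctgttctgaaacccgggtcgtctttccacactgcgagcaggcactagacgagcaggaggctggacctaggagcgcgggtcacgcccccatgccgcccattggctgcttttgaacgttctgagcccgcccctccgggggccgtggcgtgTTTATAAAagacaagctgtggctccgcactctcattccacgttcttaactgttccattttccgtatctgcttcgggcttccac
ID3: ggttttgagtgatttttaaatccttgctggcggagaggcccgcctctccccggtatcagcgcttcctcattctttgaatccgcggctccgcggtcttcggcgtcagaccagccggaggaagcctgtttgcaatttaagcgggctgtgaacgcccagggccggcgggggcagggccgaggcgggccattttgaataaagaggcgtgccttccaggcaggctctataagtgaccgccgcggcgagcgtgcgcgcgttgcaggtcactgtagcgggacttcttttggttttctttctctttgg
SMAD6: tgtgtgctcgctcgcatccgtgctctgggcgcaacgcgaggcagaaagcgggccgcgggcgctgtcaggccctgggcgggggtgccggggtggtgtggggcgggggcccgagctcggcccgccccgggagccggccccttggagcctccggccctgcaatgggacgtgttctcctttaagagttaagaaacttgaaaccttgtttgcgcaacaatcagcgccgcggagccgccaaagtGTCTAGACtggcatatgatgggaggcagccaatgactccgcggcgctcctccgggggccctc
The start used for this BMP4 window lies inside the GENCODE span of the gene, and counts per gene do not show which start was used. The BMP4 window held GGCGCC at -232 and +2 from the start, letters found in 19.2% of 35116 promoter windows of the same length. The other BMP4 windows, not shown, held no GGCGCC. SMAD6 alone among the members' windows held GTCTAGAC, at -12, which 0.202% of all windows contain. ID1 held TATAAA on both strands in overlapping positions, -33 and -31, against 11.5% of all windows. The ID3 window held none of these. BAMBI, not shown, held GGCGCC 3 times. Of the 13 member windows, 2 held GGCGCC and 3 held TATAAA. Of the other letters searched, CAGACA (a SMAD box, in 16.9% of windows) was found in 1 of 13 member windows, CANNTG (the E-box, in 68.7%) in 6, and TGANTCA (AP-1, in 7.71%) and TGACGTCA (the cyclic AMP response element, in 1.85%) in none. No other matches overlapped, and a match describes letters only.

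All 10 genes passed the low-count filter, BMP6 and ID4 on at most 20 counts in a library. By the criterion the study states for this experiment (log2 fold change past 1 or -1 with p under 0.05 before adjustment), 3 of 10 members were called against 9.58% of 22511 genes tested. BMP4 and ID3 were higher in the clones (2 of 10, against 4.24% of all genes in that direction) and BMP2 was lower (1 of 10, against 5.34%). Over all genes these were 955 higher and 1202 lower calls, where DESeq2 gave 1591 higher and 1144 lower. The members were chosen with earlier results of these data known, so their shares are not a test against all genes. The calls come from the quasi-likelihood test of edgeR, in which only the clones are replicated. Its p-values set the difference from 1 parental library against the spread between these 3 clones, moderated by that of other genes. No member had an adjusted p under 0.05, where 0.00444% of all genes (1 gene) did. DESeq2's Wald test put 3 of 10 members and 1095 of 22511 genes there. At an unadjusted p under 0.05, 1052 genes were higher and 1538 lower. The 3 clones lay on the same side of the parental library for 5 of 10 members, BMP4, ID1 and ID3 above and BMP2 and ID4 below, against 59.1% of all genes. An exact permutation test of 1 library against 3 could not give a p below 0.25.

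**Figure D1:**
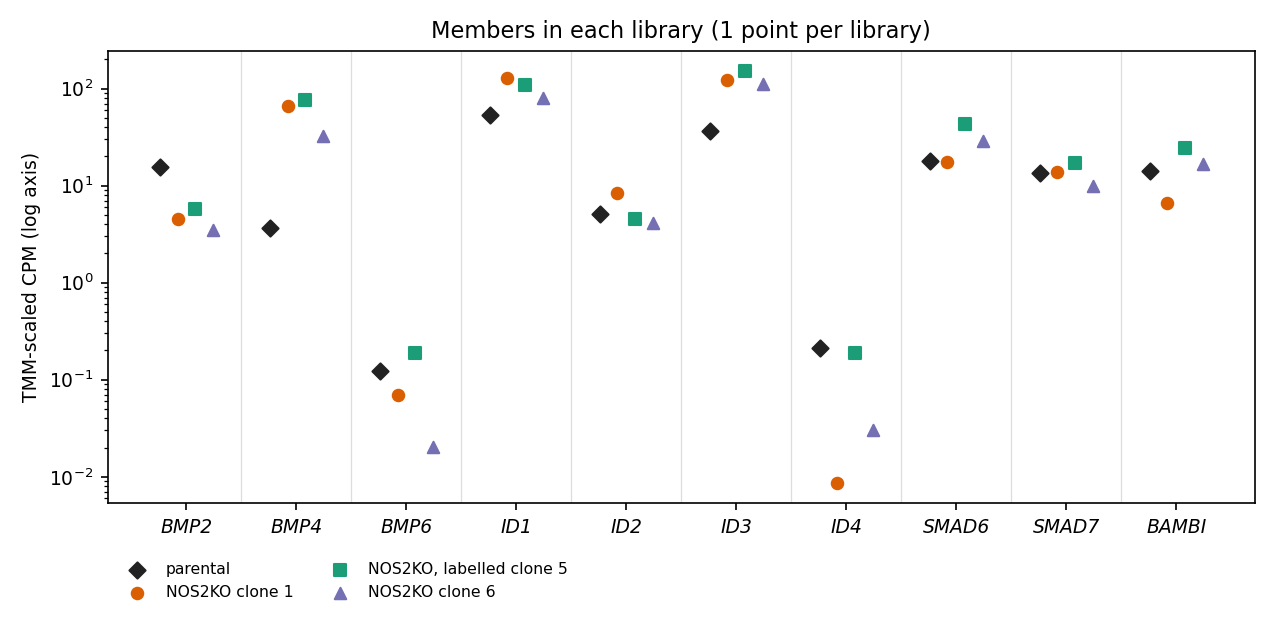
Counts of the 10 members scaled by library size and trimmed-mean (TMM) factors (CPM, log axis), 1 point per library, the parental library as diamonds. BMP4 and ID3 points of all 3 clones sit above the diamond and BMP2 points below it, while BMP6 and ID4 reach at most 0.210 CPM.

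BMP4 showed the largest difference of the ligands. BMP4 (ENSG00000125378, GRCh38 chr14:53949736-53958761, minus strand) had 330 counts in the parental library and 7530, 8073 and 3197 in the libraries labelled clone 1, 5 and 6, which were 3.65, 65.7, 75.7 and 32.4 CPM. Every clone stood well above the parental library, and clone 6 was the lowest of them. The fitted log2 fold change was 3.99 (SE 0.54, Benjamini-Hochberg adjusted p = 0.277 in edgeR), 15.9-fold higher. Against the parental library the log2 ratios were 4.17, 4.37 and 3.15 in that order, and the lowest had an exact 95% interval from 2.99 to 3.32. The library labelled clone 5 exceeded clone 6 by 1.22 (interval 1.16 to 1.28), so the clones differed among themselves beyond counting error.

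BMP2, a second ligand of the same receptors, moved the other way. BMP2 (ENSG00000125845, chr20:6767664-6780280, plus strand) had 15.6 CPM in the parental library and 4.53, 5.68 and 3.47 CPM in the libraries labelled clone 1, 5 and 6. The fitted log2 fold change was -1.77 (SE 0.48, Benjamini-Hochberg adjusted p = 0.332 in edgeR), 3.41-fold lower. The log2 ratios were -1.78, -1.45 and -2.17 in the libraries labelled clone 1, 5 and 6. No clone overlapped the parental value. BMP6 (chr6:7726797-7881422) had 11, 8, 20 and 2 counts in the parental library and the libraries labelled clone 1, 5 and 6, and its log2 ratio in clone 6 was -2.58 with an interval from -5.80 to -0.39. The library labelled clone 5 exceeded clone 6 by a log2 ratio of 3.21 (interval 1.17 to 6.35), and the fit gave -0.39 (SE 1.41, adjusted p = 0.929 in edgeR).

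Per kilobase of exon, the level of BMP2 was 3.65 times (interval 3.23 to 4.13) that of BMP4 in the parental library. In clones 1, 5 and 6 BMP4 exceeded BMP2 per kilobase by 16.9 times (15.5 to 18.5), 15.6 times (14.3 to 16.9) and 10.9 times (9.77 to 12.2). BMP4 thereby went from 21.3% of the per-kilobase level of the 3 ligands to 94.3%, 93.7% and 91.6%. The order of the 2 ligands was thus opposite in the parental library and in each clone, and these ratios rest on 1 library each.

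**Figure D2:**
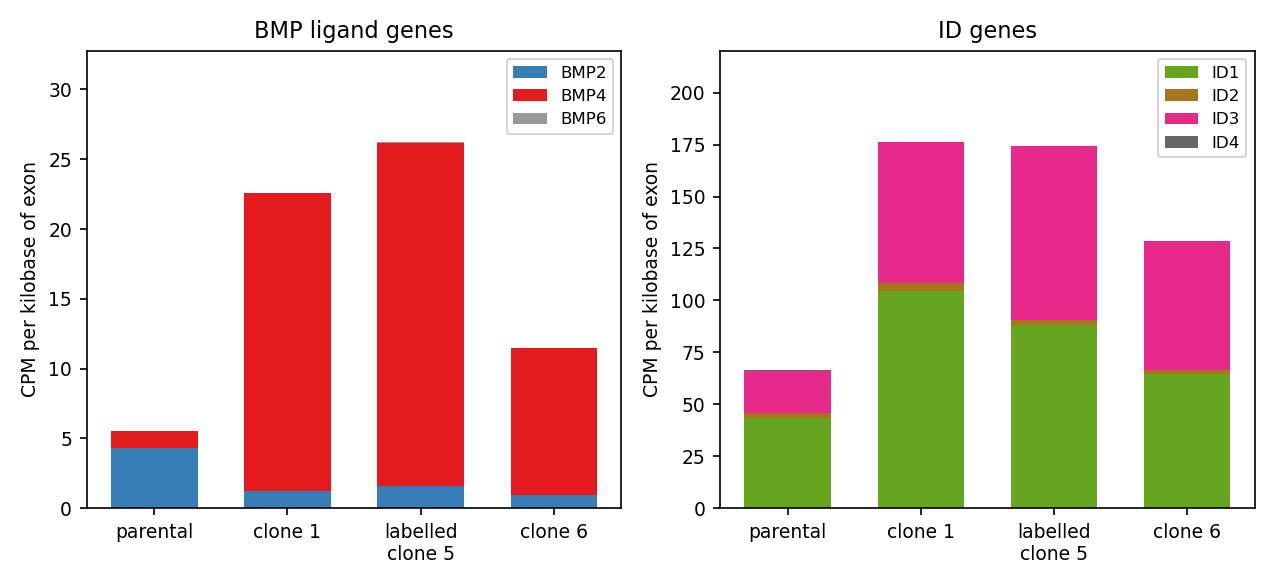
Stacked levels of the 3 ligand genes (left) and the 4 ID genes (right) in CPM per kilobase of exon, one bar per library. BMP4 fills most of each clone's ligand bar and BMP2 most of the parental bar, and the ID bars of the clones reach 128.5 to 176.2 against 66.3 in the parental library.

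Of the ID genes, ID3 and ID1 were the abundant pair. ID3 (ENSG00000117318, chr1:23557918-23559794, minus strand) had 36.6 CPM in the parental library and 121.4, 150.5 and 111.2 CPM in the libraries labelled clone 1, 5 and 6. The 3 clones lay above the parental library and close together, with log2 ratios of 1.73, 2.04 and 1.60. The fitted log2 fold change of ID3 was 1.80 (SE 0.31, Benjamini-Hochberg adjusted p = 0.306 in edgeR), a 3.49-fold difference. ID1 (ENSG00000125968, chr20:31605283-31606515, plus strand) had 53.7 CPM in the parental library and 129.1, 108.9 and 79.8 CPM in the libraries labelled clone 1, 5 and 6. All 3 clones were above the parental library, but the fitted log2 fold change of 0.98 (SE 0.36, adjusted p = 0.444 in edgeR) narrowly missed both parts of the criterion. It lay inside it with upper quartile scaling, with a minimum of 1 CPM, with DESeq2 and without clone 6.

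ID2 and ID4 did not follow. ID2 (chr2:8678845-8684453, plus strand) had 5.07 CPM in the parental library and 8.46, 4.55 and 4.14 CPM in the libraries labelled clone 1, 5 and 6, so clone 1 alone was above the parental library. Its fitted log2 fold change was 0.17 (SE 0.61, adjusted p = 0.929 in edgeR). ID2 shares 38 exon bases with ID2-AS1 on the opposite strand, which had at most 18 counts in a library. ID4 (chr6:19837386-19840684, plus strand) had 19, 1, 20 and 3 counts in the parental library and the libraries labelled clone 1, 5 and 6. Its log2 ratio was -4.59 in clone 1 (interval -9.97 to -1.94) and -2.79 in clone 6 (interval -5.19 to -1.02). In the library labelled clone 5 it was -0.16. ID4 in that library exceeded clone 6 by a log2 ratio of 2.62 (interval 0.87 to 5.02). The fitted value of ID4 was -1.46 (SE 1.69, adjusted p = 0.742 in edgeR), -3.35 without the library labelled clone 5 and -0.93 without clone 1.

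The summed per-kilobase level of the 4 ID genes was 66.3 in the parental library and 176.2, 174.2 and 128.5 in the libraries labelled clone 1, 5 and 6. ID3 made up 30.7% of that sum in the parental library and 38.4%, 48.1% and 48.2% in the clones. The per-kilobase ratio of ID3 to ID1 went from 0.467 to 0.645, 0.948 and 0.957, and stayed below 1 in every library.

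**Figure D3:**
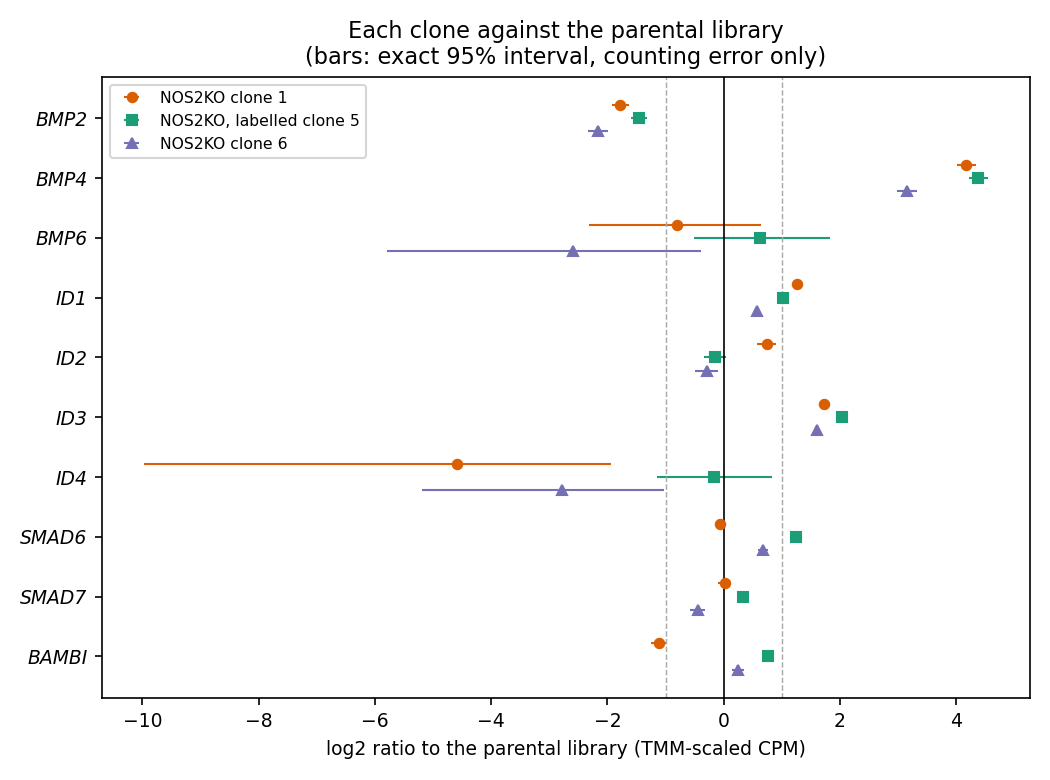
Log2 ratio of each clone to the parental library for the 10 members (x axis, TMM-scaled CPM), with exact 95% intervals that cover counting error only. BMP4, ID1 and ID3 lie right of 0 and BMP2 left of it in all 3 clones, and SMAD6, SMAD7, BAMBI and ID2 have clones on both sides.

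For each of the 3 brakes the clones fell on both sides of the parental library, and none met the criterion. SMAD6 (ENSG00000137834, chr15:66702228-66782848, plus strand), which competes for the BMP SMADs, had 18.1 CPM in the parental library and 17.3, 42.7 and 28.9 CPM in the libraries labelled clone 1, 5 and 6. Clone 1 was level with the parental library, with a log2 ratio of -0.06 (interval -0.16 to 0.03), and the other clones were above it by 1.24 and 0.68. The fitted log2 fold change was 0.71 (SE 0.55, adjusted p = 0.662 in edgeR). SMAD7 (ENSG00000101665, chr18:48919853-48950711, minus strand), which also blocks transforming growth factor beta receptors, had 13.6 CPM in the parental library and 13.7, 17.0 and 9.93 CPM in the libraries labelled clone 1, 5 and 6. Its fitted log2 fold change was -0.00 (SE 0.44), and its sign changed under other scalings. BAMBI (ENSG00000095739, chr10:28677342-28682939, plus strand), a receptor without a kinase, had 14.3 CPM in the parental library and 6.59, 24.2 and 16.9 CPM in the libraries labelled clone 1, 5 and 6. BAMBI was below the parental library in clone 1 by a log2 ratio of -1.11 and above it by 0.76 and 0.24 in the others, with a fitted value of 0.15 (SE 0.75, adjusted p = 0.951 in edgeR).

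Clone 1, which had the most ID1 and ID2 of the clones, had the least SMAD6, BAMBI and ID4. Among the clones, the library labelled clone 5 had the most of every member except ID1 and ID2, BMP2 included. With 3 clones no relation between members across clones can be tested. The search for like patterns took in 10708 genes that reached 10 CPM. The 3 whose log2 ratios lay nearest to those of ID1 over the 3 clones were LMF2 (Euclidean distance 0.0831), PIAS3 (0.144) and CFL1 (0.167). With ID1 itself counted, 3124 genes lay nearer to ID1 than ID3 did (1.53). For SMAD6 the nearest were PPM1H (0.0854), ARHGAP23 (0.0876) and RARG (0.115). No member was among them, but ID2, BMP6 and ID4 did not reach 10 CPM and could not appear.

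The rest of the pathway was read from 8 lists of 78 other genes, of which 66 were tested and 12 were not. Of the 66, 2 were called higher and 2 lower, 6.06%, against 9.58% of all genes tested. Without clone 1 the pathway count was 11 and that of all genes 3399. The median log2 fold change was 0.35 over these 66 genes, 0.16 over the 10 members and 0.10 over all genes. Among 15 tested extracellular antagonists and modulators, FSTL1, a secreted follistatin-like protein, was the gene called. FSTL1 had 162 CPM in the parental library and 324, 495 and 388 CPM in the libraries labelled clone 1, 5 and 6, with a fitted value of 1.31 (SE 0.37, adjusted p = 0.365 in edgeR). Among 12 other BMP-responsive genes, ATOH8, a basic helix-loop-helix factor, had 16.6 CPM in the parental library and 51.2, 89.0 and 54.5 CPM in the clones (log2 fold change 1.96, SE 0.42, adjusted p = 0.332 in edgeR). HEY1, a repressor that BMP and Notch signals share as a target, had 5.24 CPM in the parental library and 0.602, 1.51 and 1.11 CPM in the clones. The fitted log2 fold change of HEY1 was -2.29 (SE 0.70, adjusted p = 0.351 in edgeR). ATOH8 was called higher and HEY1 lower. Of the 3 E proteins that ID proteins bind, TCF12 had 151.5 CPM in the parental library and 56.9, 79.8 and 84.0 CPM in the clones. Its fitted log2 value was -1.04 (SE 0.34, adjusted p = 0.367 in edgeR). TCF4 went the other way, with 23.3 CPM in the parental library and 27.9, 43.8 and 72.2 CPM in the clones. Its fitted log2 value of 1.04 (SE 0.57, adjusted p = 0.555 in edgeR) did not meet the criterion. TCF3 had 158.7 CPM in the parental library and 103.7 to 148.7 CPM in the clones, and was not called.

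**Figure D4:**
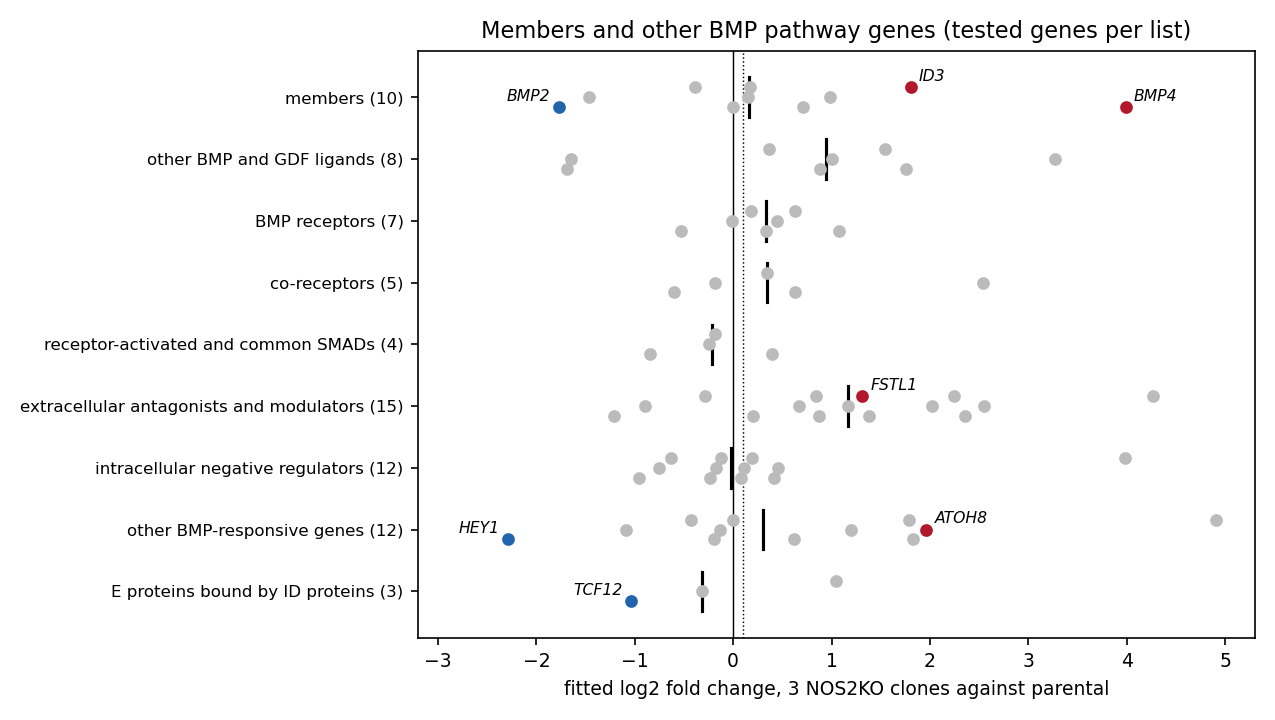
Fitted log2 fold changes (x axis) of the tested genes by list, red and blue for genes that met the criterion in either direction, grey for the others, with list medians as bars and the median of all genes as a dotted line. Labelled points are the members BMP4, ID3 and BMP2 and the other genes FSTL1, ATOH8, HEY1 and TCF12.

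No gene of the ligand, receptor, co-receptor, SMAD and intracellular regulator lists met the criterion. GDF11, a ligand that signals mainly through SMAD2 and SMAD3, had 27.9 CPM in the parental library and 48.4, 58.1 and 47.6 CPM in the clones, and BMP8B had 3.41 CPM and 3.68 to 5.18 CPM. Of the 8 tested genes of this list, 5 were above the parental library in all clones and 2 below it. BMP5 had 0.243 CPM in the parental library and 0.488, 2.29 and 4.31 CPM in the clones. BMP7 had 1.80 CPM in the parental library and 0.0872, 1.40 and 0.193 CPM in the clones. BMPR2, the type II BMP receptor, had 38.7 CPM and 55.9 to 63.9 CPM (log2 fold change 0.62, SE 0.26, adjusted p = 0.469 in edgeR), and ACVR1, a type I receptor, had 28.7 CPM and 31.0 to 44.0 CPM. The co-receptor ENG had 127.8 CPM in the parental library and 105.8 to 200.8 CPM in the clones, with clone 1 below it, and TGFBR3 had 35.4 CPM and 22.9 to 44.7 CPM. SMAD1, which carries the BMP signal, had 51.5 CPM in the parental library and 24.7, 20.4 and 40.9 CPM in the clones (log2 fold change -0.84, SE 0.47, adjusted p = 0.534 in edgeR), and SMAD5 had 91.3 CPM and 76.9 to 85.5 CPM. FKBP1A, which holds type I receptors inactive, had 323.6 CPM and 408.1 to 499.8 CPM, and TOB2 had 112.2 CPM and 112.3 to 122.5 CPM.

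The genes nearest to BMP4 on the chromosome gave lower values than BMP4. The 4 nearest genes on each side with at least 1 CPM lay 438 to 1175 kb away, a set chosen after the values of BMP4 were known and given without a test. Their log2 fold changes ran from -1.49 (GNPNAT1) to 2.02 (CDKN3), with a median of -0.20, against 3.99 for BMP4. CDKN3 stood out through clone 1, where its log2 ratio was 3.15, against 0.50 and 0.96 in the library labelled clone 5 and clone 6. Around BMP2 the 8 genes chosen likewise lay 239 to 3206 kb away. They ran from -3.22 (PLCB1) to 1.24 (CASC20), with a median of -0.35. GNPNAT1 near BMP4 and PLCB1 near BMP2 met the criterion as lower, 1 of 8 in each set, against 5.34% of all genes tested.

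**Figure D5:**
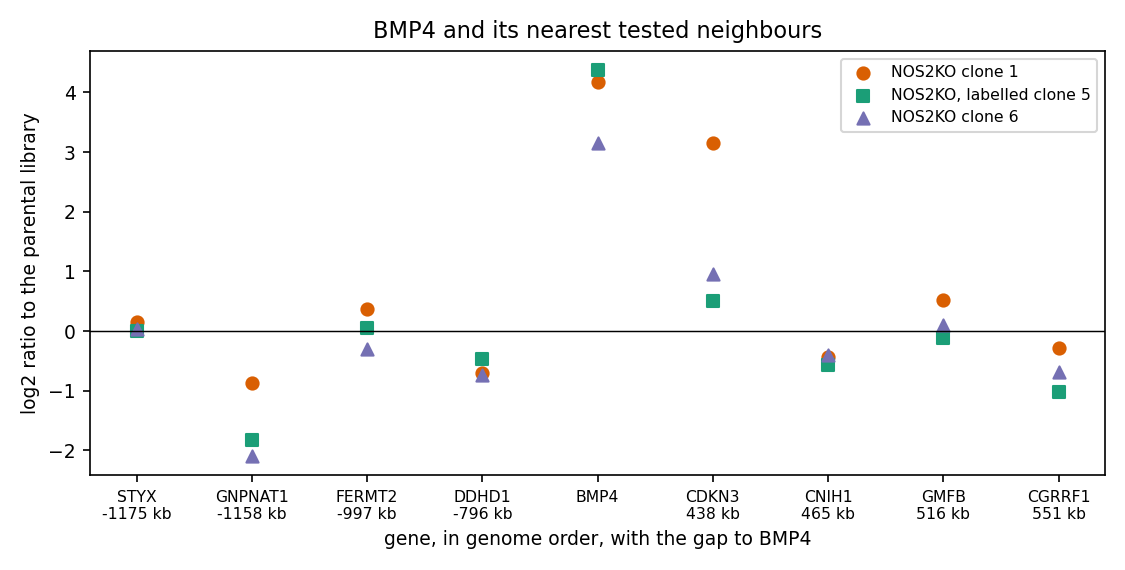
Log2 ratio of each clone to the parental library (y axis) for BMP4 and its 8 nearest genes with at least 1 CPM, in genome order with the gap in kb. BMP4 lies above 3 in all 3 clones, and apart from CDKN3 in clone 1 the neighbours lie below 1.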

How the data were processed

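RNA-sequencing counts of 4 SUM159 libraries (1 parental, 3 NOS2KO clones) were analysed. The deposited values were the authors' raw gene counts, not normalized. The submitters' processing notes name bcl2fastq 2.17, Trimmomatic 0.36, STAR 2.5.2b, featureCounts (Subread 1.5.2), DESeq2 and GRCh38. The strand setting and the treatment of multi-mapping reads were not given in the sources used here, and the kit marks no strand. Of 57500 rows, 56898 had a GENCODE 29 symbol and 54784 had its coordinates. SMAD7 did not, and its span is that of the file.

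Testing used edgeR 4.0.16 under R 4.3.3 (filterByExpr, TMM, glmQLFit, glmQLFTest, 2 residual degrees of freedom, Benjamini-Hochberg adjustment over 22511 genes), tested on simulated data first. The simulated counts were given less spread between libraries than was fitted to these data, so they do not show how the test performs at the spread of these clones. DESeq2 1.42.0 was an alternative, as were other scalings, filters, robust and bias-adjusted estimation, a prior count of 2 and each clone left out. CPM is relative to the TMM-scaled library size. Clopper-Pearson 95% intervals and the floor of 3 counts cover counting error only. That floor was 0.0246 to 0.0332 CPM by total counts, without the TMM factors. Named genes were all members, pathway genes that met the criterion with at least 1 CPM, otherwise the 2 genes of a list highest per kilobase in the parental library, and the genes nearest to ID1 and SMAD6. The E proteins were all named, and BMP5 and BMP7 were added among the ligands. The members and lists were chosen with earlier results of these data known, and 1 marker gene is not reported here. No source states that libraries came from separate cultures. Python 3.11.15, pandas 2.3.3, scipy 1.17.1 and matplotlib 3.10.9 were used.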

Additional observations from a re-analysis of the deposited data

How the results depend on the processing

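BMP2, BMP4 and ID3 kept their direction and their side of the criterion under every scaling, filter, test and left-out clone tried. ID1 crossed into the criterion at 1.08 (upper quartile scaling), 1.01 (a minimum of 1 CPM) and 1.00 (DESeq2), and ran from 0.81 to 1.15 with a clone left out. The number of members called was 3 or 4 throughout. SMAD7, at -0.00, became 0.020 with RLE scaling, 0.104 with upper quartile scaling, 0.0066 with library size alone, 0.016 without a filter, 0.037 with a minimum of 1 CPM and 0.020 with DESeq2, and ran from -0.18 to 0.18 with a clone left out. With a clone left out BMP6 ran from -1.38 to 0.080, ID2 from -0.22 to 0.36 and BAMBI from -0.26 to 0.53, with the other sign without clone 6, clone 1 and the library labelled clone 5 in that order, and the cause was not tested. For SMAD7 the highest value was without clone 6. ID4 ran from -3.35 to -0.93 and SMAD6 from 0.38 to 0.99 with a clone left out.

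The other pathway genes called ranged from 3 to 11 and all genes from 1466 to 3399 with a clone left out, against 4 and 2157, the highest counts both without clone 1. Calls were higher for 955 of 2157 genes, against 1591 of 2735 with DESeq2 and 1124 of 2126 with upper quartile scaling. The median of all genes moved by 0.10 with upper quartile scaling and by 0.21 without a filter. No paired analysis was possible because there was 1 parental library. BMP6 and ID4 had at most 20 counts in a library, and their clones differed beyond counting error.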
